A study of Homo sapiens with 28 samples.

Results

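The regions described here are the stretches of acetylated chromatin that the human T-cell leukaemia lines Jurkat and Loucy held in common. Acetylation of lysine 27 on histone H3 (H3K27ac) was mapped by chromatin immunoprecipitation sequencing (ChIP-seq), with 2 libraries per line. The peaks of the 4 libraries on the main chromosomes of hg38 were merged into 61099 union regions. A library held a region when its own peaks covered at least 10% of it, and the 13477 regions held by all 4 libraries (22.1%) make up the shared set. The members were thus chosen by measured peak coverage. Because the rule used the same peak lists, the length, coverage and signal rank of the shared regions are descriptions, and no test of them against the other regions was made.

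H3K27ac is deposited by the acetyltransferases p300 and CBP and marks active promoters and enhancers. Long, nearly continuous stretches of it, often called broad domains or super-enhancers, tend to lie at genes that define a cell's identity. Methyl groups on the same lysine exclude the acetyl group from that histone tail, and the trimethylated form, H3K27me3, is written by the Polycomb enzyme EZH2 at silenced genes.

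The human samples accompany a study of Ezh2 and Runx1 loss in mouse bone marrow. Jurkat came from a T-cell acute lymphoblastic leukaemia, and Loucy from a T-cell leukaemia with features of early T-cell precursors. Both were untreated lines grown in RPMI-1640 medium with 10% foetal calf serum, and each was also profiled for H3K27me3 in 2 libraries. Each line is 1 established line and not a sample of a disease class, and no source says that the 2 libraries came from separate cultures, so any p-value measures only the spread between these libraries. The lines were not checked against marker genes, since no gene annotation of hg38 was used here, and regions are named by their hg38 coordinates alone.

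The 4 H3K27ac libraries held between 11329731 and 12521211 fragments, and between 28826 and 40250 peaks on the main chromosomes. Loucy replicate 2 had the most peaks and covered 64.1 Mb, while the other libraries covered 43.9 to 48.8 Mb. The share of fragments inside peaks, estimated from the authors' pileup, was 43.8% and 39.7% in Jurkat but 21.4% and 35.02% in Loucy, so Loucy replicate 1 was the library with the weakest enrichment. The H3K27me3 lists were much less alike, with 16590 and 10120 peaks in Jurkat and 136 and 144 in Loucy.

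Shared regions were few but long. Their median length was 2342 bp (quartiles 1687 and 3523 bp, range 240 to 63872 bp), while the 47622 regions missing from at least 1 library had a median of 716 bp. Regions held by exactly 1 library had a median length of 412 bp, those held by 2 had 1388 bp, and those held by 3 had 1636 bp. The shared set thus made up 22.1% of the regions but 43.2 of the 98.6 Mb covered by the union, or 43.8%. Of the union regions up to 1 kb long, 1.63% were shared, against 53.9% of those between 2 and 5 kb and 71.1% of the 83 regions over 20 kb. A union region grows as more libraries contribute peaks to it, so the length is in part set by the rule.

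**Figure D1:**
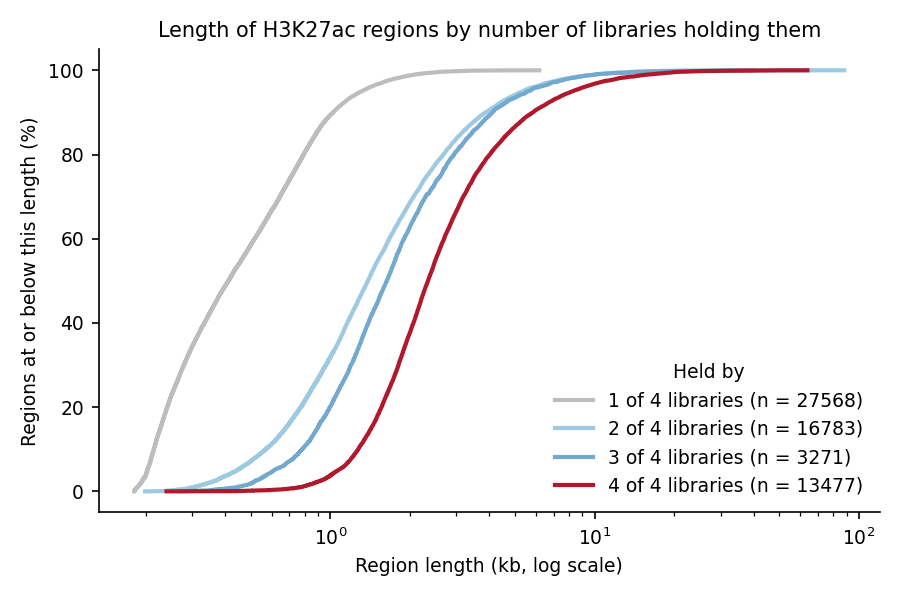
Cumulative distribution of region length (x axis, kb on a log scale) against the percentage of regions at or below it (y axis), with 1 line for the regions held by 1, 2, 3 or all 4 H3K27ac libraries. The line for the 13477 shared regions lies to the right of the others over most of the range, with a median of 2342 bp against 412 bp for the regions held by 1 library.

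Within a shared region the 4 libraries overlapped only in part. The stretch covered by all 4 had a median of 1041 bp, or 44.6% of the region (quartiles 27.8% and 60.1%), and added up to 17.9 Mb. In 237 shared regions (1.76%) no base was covered by all 4 libraries at once. Every one of the 13477 had at least 1 base covered in both lines, which the merging of overlapping peaks into regions largely fixes. In 11501 shared regions (85.3%) each library covered the region in a single unbroken piece.

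Shared regions took up most of the acetylated territory of all 4 libraries. They held 62.4% and 65.0% of the covered bases in Jurkat replicates 1 and 2, and 61.0% and 51.9% in Loucy replicates 1 and 2. Both Jurkat values lay above both Loucy values, and the means were 63.7% ± 1.85 and 56.5% ± 6.45 (SD, n = 2). The difference of −7.18 percentage points became −15.5 without Loucy replicate 1, −3.38 without Loucy replicate 2 and −3.90 without Jurkat replicate 2. These shares rest on the coverage that chose the members and were not tested. Loucy replicate 2, with the largest territory, had the lowest share. The direction of this difference was not stable, since it reversed when peaks were limited to a −log10 q of at least 5, where Loucy was 12.9 percentage points higher.

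In each list the shared regions ranked high by pileup, the depth of overlapping fragments that the authors' caller wrote for a peak (a region takes the value of its highest peak). A broad peak has a single pileup value, which the share of fragments inside peaks above took as its mean depth. Ranks of peaks of unequal length thus may not compare the same part of a region. Their median percentile among the regions a library held was 76.9 and 73.8 in Jurkat, and 73.0 and 80.9 in Loucy. Of the highest decile of each list, 96.8% and 97.0% in Jurkat and 94.3% and 94.8% in Loucy were shared. The lowest decile was shared to 2.58% and 5.52% in Jurkat and to 6.48% and 2.39% in Loucy. The strongest acetylated regions of either line were thus nearly all held by all 4 libraries, while the weakest were nearly all missing from at least 1, be it of the same or of the other line.

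**Figure D2:**
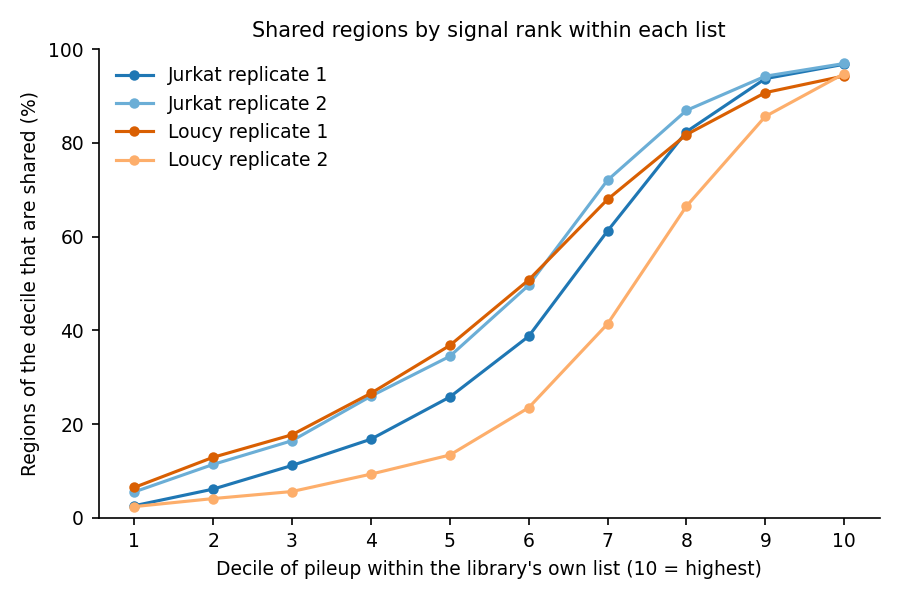
Percentage of a library's regions that were shared (y axis) in each decile of pileup within that library's own list (x axis, 10 is the highest), with 1 line for each of the 4 H3K27ac libraries. All 4 lines climb from under 7% in the lowest decile to over 94% in the highest, and Loucy replicate 2 lies lowest in the middle deciles.

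The order of signal among the shared regions was closer between libraries of 1 line than between lines. Spearman's rank correlation of pileup over the 13477 regions was 0.97 between the Jurkat libraries and 0.92 between the Loucy libraries, and 0.72 to 0.73 between lines. These correlations are across regions of the same chromosomes and, within a line, rest on the same input, so they are given as a description. The covered length behaved alike, with a Pearson correlation of log2 lengths of 0.91 in Jurkat, 0.87 in Loucy and 0.59 to 0.60 between lines.

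The highest ranks were of a kind of their own. The 5 shared regions whose lowest percentile over the 4 lists was highest were chr16:46387817-46391225, chr3:93470392-93470755, chr1:125179073-125180473, chr5:49601232-49602883 and chr5:49657378-49661794. At chr16:46387817-46391225 the acetylation pileup was 247 and 275 in Jurkat and 270 and 224 in Loucy, but the authors' fold enrichment over the local background was only 1.52, 1.56, 1.53 and 1.31. All 5 belonged to a group of 11 shared regions that were also covered by H3K27me3 in all 4 H3K27me3 libraries, and no other shared region was covered in either Loucy library to the 10% used here. Across the 11, from 240 to 4417 bp long, the pileup percentile never fell below 98.6, whereas fold enrichment ran from 1.31 to 1.94, at or below the 0.139 percentile of each list. The median fold enrichment of all shared regions was 8.39 and 8.15 in Jurkat and 4.85 and 5.76 in Loucy. What gives these 11 regions a high pileup with so little enrichment was not tested.

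Ranked by fold enrichment, an order added after the data were seen, different regions led. The shared region with the highest lowest rank was chr9:97978874-97986898, where the fold enrichment was 32.7 and 32.8 in Jurkat and 17.2 and 22.2 in Loucy. It was followed by chr21:41877822-41880386, with 31.5 and 34.4 in Jurkat and 18.6 and 24.7 in Loucy. Next came chr6:42780767-42785542, chr10:32345419-32348963 and chr11:130000745-130004490. None of these 5 was touched by H3K27me3, and each stood at or above the 99.6 percentile of pileup in every list. At all 5 both Jurkat values of fold enrichment exceeded both Loucy values, as did the medians of the whole set.

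The width of a shared region in a library is the number of its bases that the library's peaks cover. The median width was 1726 and 1671 bp in Jurkat and 1420 and 1739 bp in Loucy. Loucy replicate 1, the library with the weakest enrichment, was the narrow one. Counts and the median difference in width are given below without it too, while the make-up of the unequal sets was described with all 4 libraries only. Between the libraries of 1 line a region's width typically differed by 1.13-fold in Jurkat and 1.24-fold in Loucy (medians over the shared regions, after adding 200 bp to each width). Between lines it differed by 1.36 to 1.43-fold. In 7245 shared regions (53.8%) all 4 widths lay within 2-fold of each other.

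Unequal width was called where both libraries of one line were at least 2-fold wider than both of the other. By this rule 858 shared regions (6.37%) were wider in Loucy and 742 (5.51%) in Jurkat. Among the 33531 union regions held by at least 2 libraries, the same rule called 28.9% wider in Loucy and 27.2% wider in Jurkat. The lower shares among the shared regions follow from their choice, since the narrow line had to cover at least 10% of each. With each library centred on its median over the shared regions the same rule gave 1057 and 602, a larger excess towards Loucy. At a 4-fold difference 134 shared regions were wider in Loucy and 73 in Jurkat. Either Loucy library alone moved the 2-fold counts: without replicate 1 they were 1669 and 1645, and without replicate 2 they were 1017 and 2194. Without Jurkat replicate 1 they were 1447 and 993, and without Jurkat replicate 2 they were 1486 and 1104.

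A linear model of log2(covered bp + 200) over the 33531 regions, fitted with limma, gave an error for each region and a balance that leaned the other way. At an adjusted p under 0.05, 1432 shared regions were wider in Loucy (10.63%) and 1713 in Jurkat (12.71%), against 27.1% and 27.2% of all regions fitted. The median log2 difference (Loucy minus Jurkat) of the shared regions was −0.15. It was −0.068 without Loucy replicate 1, −0.26 without Loucy replicate 2 and −0.049 with the libraries centred on their median over the shared regions, so its size depended on the library and the scaling. With the libraries centred, limma called 2047 wider in Loucy and 1599 in Jurkat, so 56.1% of the calls pointed to Loucy instead of 45.5%. The split of the calls between the lines thus depended on the scaling. Without Jurkat replicate 1 limma called 583 and 119, without Jurkat replicate 2 it called 569 and 119, and the lone Jurkat library is then assumed to vary like the Loucy libraries. Without Loucy replicate 1 it called 1499 and 1389, and without Loucy replicate 2 it called 1124 and 2537.

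**Figure D3:**
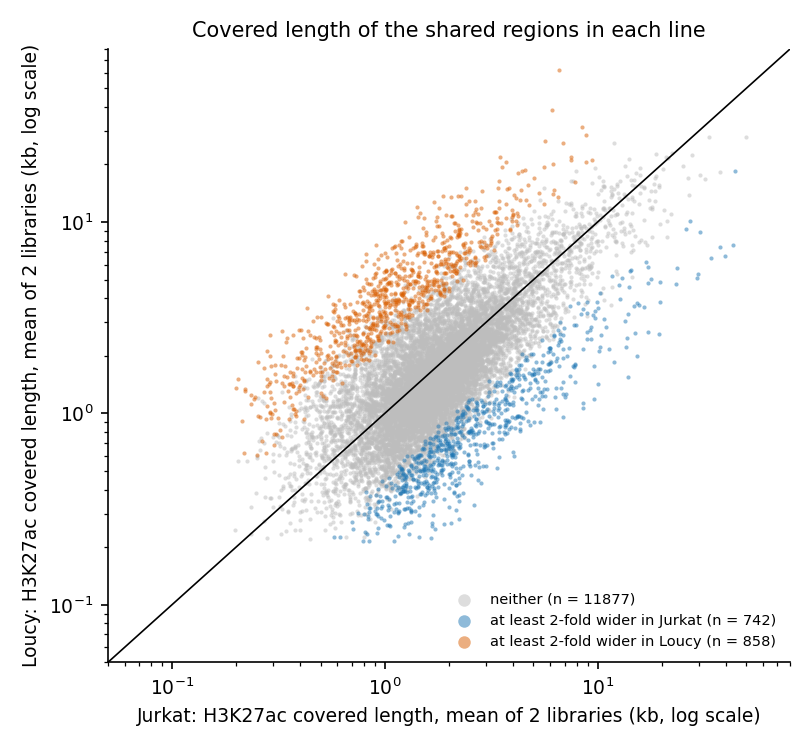
Mean covered length of each of the 13477 shared regions in Jurkat (x axis) and Loucy (y axis), in kb on log scales, each the mean of 2 libraries, with equality as a line. Orange points are the 858 regions at least 2-fold wider in both Loucy libraries, blue points the 742 wider in both Jurkat libraries, and grey points the other 11877.

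The regions wider in Loucy were long, and those wider in Jurkat were of ordinary length. The 858 wider in Loucy had a median length of 4694.5 bp, with median widths of 1097 and 1064 bp in Jurkat and 3695 and 4429.5 bp in Loucy. The 742 wider in Jurkat had a median length of 2529 bp, with median widths of 2329.5 and 2245 bp in Jurkat and 662.5 and 779.5 bp in Loucy. The share of shared regions wider in Loucy was 1.66% between 1 and 2 kb and 5.70% between 2 and 5 kb. It was 20.8% between 5 and 10 kb and 27.1% of the 59 over 20 kb. The share wider in Jurkat was 5.04%, 4.96%, 8.06% and 22.0% in the same classes. Shared regions over 5 kb were thus unequal more often than shorter ones, in both directions. The wide line's peaks also lengthen the union region, so this link between length and unequal width is in part set by the rule.

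Where width was unequal, the narrow line's median signal rank among its own shared regions was lower than the wide line's. Width and pileup come from the same peaks, so choosing regions by width in part fixes this. It did not hold at every region: at chr1:198155927-198194139 and chr15:56917572-56935721 the narrow line, Loucy, ranked higher. The regions wider in Loucy stood at the 17.4 and 17.1 percentile of the shared regions in Jurkat (medians) and at the 45.2 and 42.9 percentile in Loucy. Those wider in Jurkat stood at the 48.03 and 47.99 percentile in Jurkat and at the 33.3 and 35.2 percentile in Loucy. By fold enrichment the medians were 16.3 and 16.4 in Jurkat and 47.8 and 44.7 in Loucy for the first set, and 50.1 and 51.05 in Jurkat and 34.6 and 34.7 in Loucy for the second.

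The narrow line's acetylation lay inside that of the wide line. With the 2 libraries of a line pooled, its covered bases were nested entirely within the wide line's in 89.5% of the regions wider in Loucy. In those wider in Jurkat the share was 89.6%. The choice of the regions in part fixes this, since the wide line makes up most of the union of peaks that sets the region. The centre of the narrow stretch, which cannot lie at the very end of a region, fell in the outermost 25% of the length at either end in 20.4% of the regions wider in Loucy and in 22.4% of those wider in Jurkat.

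The longest shared region, chr7:27138622-27202493, showed the largest difference towards Loucy. Of its 63.9 kb, Jurkat replicates 1 and 2 covered 6.80 and 6.45 kb and Loucy replicates 1 and 2 covered 60.3 and 63.7 kb. In each Jurkat library the cover was 7 separate pieces, while Loucy had 3 pieces in replicate 1 and 1 unbroken domain in replicate 2. The log2 difference was 3.19 (SE 0.072, limma adjusted p = 0.00186). Its pileup stood at the 91.5 and 87.7 percentile of the lists in Jurkat and at the 99.05 and 99.4 percentile in Loucy. No H3K27me3 peak of either line touched it.

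The second longest, chr21:35002623-35053962, was 51.3 kb long and leaned the other way. Jurkat covered 49.4 and 50.7 kb of it, each in 1 piece, and Loucy covered 24.4 and 31.2 kb in 9 pieces each. The log2 difference was −0.86 (SE 0.15, limma adjusted p = 0.0202), short of the 2-fold rule. Its pileup rank was similar in all 4 lists, at the 76.2 and 74.98 percentile in Jurkat and the 79.9 and 86.0 percentile in Loucy.

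**Figure D4:**
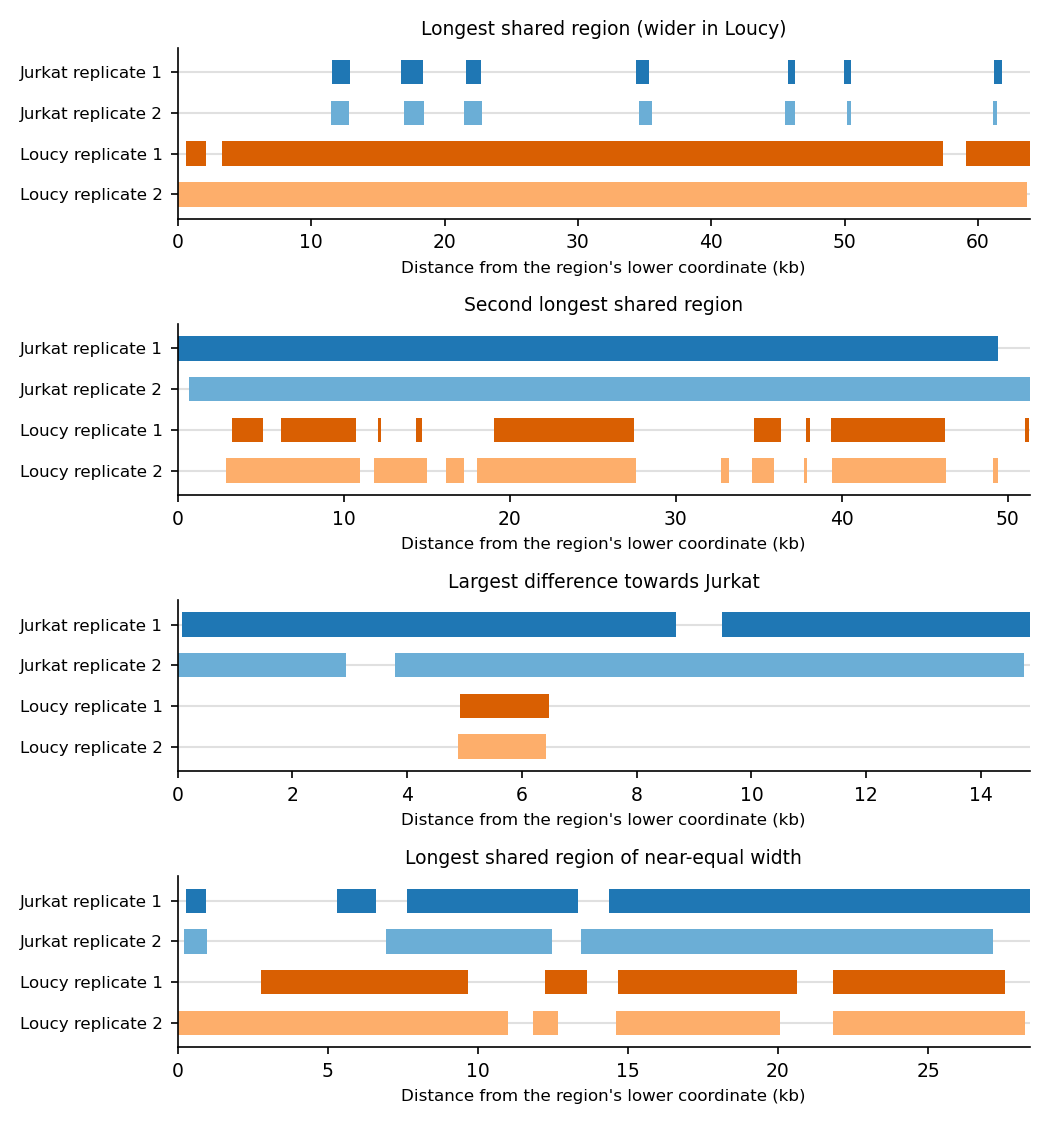
H3K27ac peaks of the 4 libraries (rows; filled bars are covered stretches) over 4 shared regions, by distance from each region's lower coordinate in kb (x axis). In the longest region both Jurkat libraries have 7 short pieces within a near-continuous Loucy domain; the others are the second longest, the largest difference towards Jurkat and the longest with the 4 widths within 1.2-fold.

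The other 8 of the 10 longest shared regions were between 34.5 and 45.9 kb. At chr5:80176466-80222323 Jurkat covered 44.0 and 44.7 kb and Loucy 19.2 and 17.9 kb. At chr2:239288854-239332920 it was 42.9 and 44.0 kb against 5.65 and 9.45 kb, and at chr22:39919990-39963691 it was 36.1 and 39.0 kb against 15.4 and 21.0 kb. These leaned to Jurkat, and Loucy covered them in 4 to 9 pieces.

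Loucy was the wide line in a pair of the 8. At chr17:57428259-57470264 Jurkat covered 6.85 and 5.39 kb and Loucy 35.1 and 42.0 kb. At chr16:85440548-85476213 Jurkat covered 8.86 and 8.76 kb and Loucy 21.4 and 35.7 kb. In both, Loucy replicate 2 covered the whole region in 1 piece.

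Jurkat was the wide line in the last 3. At chr20:57671861-57711698 it covered 39.3 and 39.8 kb and Loucy 4.11 and 9.13 kb. At chr1:198155927-198194139 it covered 38.2 and 36.6 kb and Loucy 5.91 and 8.90 kb, although the pileup there ranked higher in the Loucy lists (percentiles 85.9 and 91.4) than in the Jurkat lists (66.4 and 64.9). These ranks compare peaks of unequal length, each with a single pileup value. At chr14:91384753-91419234 Jurkat covered 33.5 and 34.5 kb and Loucy 5.58 and 7.44 kb. Of the 10 longest, 3 met the 2-fold rule towards Loucy and 5 towards Jurkat. Of the 59 shared regions over 20 kb, 27.1% and 22.0% met it. Over all regions fitted, limma called 27.1% wider in Loucy and 27.2% wider in Jurkat. The wide line's peaks lengthen a union region, so choosing the longest in part picks unequal ones. All 10 of the longest passed limma's threshold (adjusted p from 0.00186 to 0.0226), and none was touched by H3K27me3. These 10 and the 20 most unequal regions, 28 in all, kept their direction without any 1 library, but 10 of the 28 lost limma's call without Jurkat replicate 1, 11 without Jurkat replicate 2 and 1 without Loucy replicate 1.

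The 10 regions with the largest log2 difference towards Loucy ran from 5.67 to 63.9 kb in length, with log2 differences from 2.70 to 3.19 (SE 0.072 to 0.27, limma adjusted p from 0.00186 to 0.00572). They were picked among limma's calls by the size of the difference, so their low adjusted p-values follow from the choice. After the longest region came chr3:49802489-49814662, where Jurkat covered 1.29 and 1.53 kb and Loucy 11.8 and 12.2 kb. At chr17:27470864-27478707 it was 0.962 and 0.853 kb against 7.46 and 7.76 kb, each in 1 piece. These regions lie near the edge of the rule, because a region covered to less than 10% in one line would not have been shared: at chr3:49802489-49814662 the least coverage of any library was 10.6%.

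Further regions of this set ranked very differently by signal. At chr7:2731075-2738238 the widths were 0.733 and 0.908 kb in Jurkat and 6.85 and 6.82 kb in Loucy, and the pileup stood at the 54.1 and 44.0 percentile in the Jurkat lists and at the 94.9 percentile in both Loucy lists. At chr2:201182892-201196051 the widths were 1.33 and 1.59 kb against 9.16 and 13.2 kb, but the percentiles were 58.5 and 51.1 in Jurkat and 49.9 and 55.6 in Loucy. That region was wider in Jurkat when only peaks of −log10 q at least 5 were used, with a log2 difference of −2.91. The other 5 were chr19:49407394-49419341, chr2:8510743-8524060, chr10:117365722-117376725, chr9:124213834-124219499 and chr5:139468570-139485218, each with at least 5.34-fold between the nearest libraries of the lines. One of the 10, chr10:117365722-117376725, had H3K27me3, over 154 bp in Jurkat replicate 1 only.

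The largest difference towards Jurkat was at chr16:56926565-56941416, 14.9 kb long. Jurkat covered 14.0 and 13.9 kb in 2 pieces per library, and Loucy covered 1.56 and 1.54 kb in 1 piece per library. The log2 difference was −3.01 (SE 0.082, limma adjusted p = 0.00186). The pileup ranked high in both lines, at the 91.8 and 85.8 percentile in the Jurkat lists and the 89.6 and 94.1 percentile in the Loucy lists. Each is a single value for a whole peak, and the Jurkat peaks were longer, so these ranks may not compare like parts.

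The 10 regions with the largest differences towards Jurkat, also picked among limma's calls, ran from 7.08 to 39.8 kb, with log2 differences from −3.01 to −2.59. At chr10:124636338-124656801 Jurkat covered 19.4 and 19.3 kb and Loucy 2.30 and 2.88 kb. At chr15:56917572-56935721 the widths were 17.7 and 16.7 kb in Jurkat against 2.65 and 2.71 kb in Loucy. The pileup there ranked higher in Loucy (percentiles 98.98 and 99.2) than in Jurkat (85.7 and 87.8). Each is a single value for a whole peak, so the ranks of these long and short peaks may not compare like parts. At chr3:58037084-58045785 Jurkat covered 8.49 and 8.68 kb and Loucy 1.17 and 0.975 kb, and the Loucy libraries covered different parts, so that no base was covered by all 4. The others were chr12:9756752-9767507, chr1:199007277-199023150, chr1:23550611-23560105, chr6:90265640-90276693, chr20:57671861-57711698 and chr4:153517290-153524367. None of the 10 was touched by H3K27me3.

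Broad shared regions of equal width also existed, although 808 shared regions (6.00%) had their 4 widths within 1.2-fold and few of those were long. The longest was chr6:26180402-26208789 at 28.4 kb, where Jurkat covered 21.7 and 20.03 kb and Loucy 20.01 and 23.7 kb in 3 or 4 pieces each. The pieces lay in part at different places, since only 45.8% of this region was covered by all 4 libraries. At chr10:72314542-72338194 all 4 libraries covered between 21.2 and 21.8 kb, and 85.5% of the region was covered by all 4. These regions were picked after the data were seen, as a contrast to the unequal ones.

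The 3 members closest to the rule's limit were weak or unequal regions, and coverage near 10% in 1 library in part fixes the unequal cover. Just inside it, the least coverage of any library was 10.02% at chr3:139641377-139643792 (0.316 and 0.242 kb in Jurkat, 1.89 and 2.35 kb in Loucy) and at chr15:95927333-95931393, and 10.03% at chr17:75995068-76001635. Just outside it was 9.97% at chr3:30628623-30632132, chr22:50083281-50087595 and chr7:17233093-17236243. At chr22:50083281-50087595, which was not shared, Jurkat covered 0.511 and 0.430 kb and Loucy 3.23 and 4.31 kb, much like the unequal regions inside the limit.

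H3K27me3 was not used by the rule and so gives a separate measurement of the shared regions. It covered at least 10% of 60 and 58 shared regions in Jurkat replicates 1 and 2, and of 11 in each Loucy replicate. These are 0.445% and 0.430% of the shared regions in Jurkat and 0.0816% in both Loucy libraries. Both Jurkat values exceeded the Loucy values, with means of 0.438% ± 0.010 and 0.0816% ± 0.0 (SD, n = 2; exact two-sided permutation p = 0.333, the smallest this design allows). Among the H3K27ac regions that were not shared, the values were 1.26% and 0.838% in Jurkat and 0.0630% and 0.0609% in Loucy. The Loucy H3K27me3 libraries held 5974153 and 3900279 fragments and gave 136 and 144 peaks, so that little can be read of H3K27me3 in Loucy from these lists. Without the 11 regions with both marks in every library, 49 and 47 shared regions were covered in Jurkat and 0 in Loucy.

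In Jurkat, H3K27me3 was unevenly spread over the shared regions of unequal width. An H3K27me3 peak of Jurkat replicates 1 and 2 touched 31 and 24 of the 858 regions wider in Loucy (3.61% and 2.80%). It touched 0 of the 742 regions wider in Jurkat, and 59 and 52 of the other 11877 (0.497% and 0.438%). Both Jurkat libraries touched the region in 20, 0 and 33 cases. The 59, 52 and 33 of the set wider in neither include the 11 regions with both marks in every library. The regions wider in Loucy were longer, and the order was not the same in every length class. Up to 1 kb both Jurkat libraries touched 0 of the 11 regions wider in Loucy and 7 of the 479 wider in neither. All of these 7 had both marks in every library, so the order in this class rests on such regions alone. Over 20 kb both Jurkat libraries touched none of either set. From 1 to 2 kb they touched 3.95% and 0.117%, and from 10 to 20 kb 3.23% and 0.840%. Between 2 and 5 kb both Jurkat libraries touched 2.66% of those wider in Loucy and 0.289% of those wider in neither, and between 5 and 10 kb 1.40% and 0.204%. No test over regions was made, since regions are not replicates of a line.

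The methylated bases were acetylated in Loucy about as often as the rest of these regions, which the choice of regions wider in Loucy largely fixes. In the 31 and 24 regions wider in Loucy, 98.98% and 99.5% of the bases with Jurkat H3K27me3 were covered by H3K27ac in Loucy, which covered 99.4% and 99.5% of the length of these regions. Jurkat's own H3K27ac covered 22.99% and 19.1% of them, while it covered 26.9% and 28.0% of the length of these regions. At chr17:79835921-79845360, 9.44 kb long, Jurkat H3K27me3 covered 4904 and 4191 bp, and H3K27ac covered 3.74 and 4.05 kb in Jurkat and 9.001 and 9.17 kb in Loucy. At chr10:22309908-22326620 Jurkat H3K27me3 covered 499 and 742 bp, and H3K27ac covered 3.32 and 3.51 kb in Jurkat and 13.6 and 16.5 kb in Loucy. These examples were chosen after the data were seen.

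The surroundings of the unequal regions differed in the same direction as their width. Within 50 kb of a region wider in Loucy there were on average 1.62 regions held only by the Loucy libraries and 0.451 held only by the Jurkat libraries. Around a region wider in Jurkat the averages were 0.261 and 1.13, and around the other shared regions 0.571 and 0.599. At least 1 such neighbour of the wide line stood near 68.1% of the regions wider in Loucy and 53.2% of those wider in Jurkat. Of the other shared regions, 34.5% had a neighbour held only by Loucy and 39.1% one held only by Jurkat. Among 261 pairs of adjacent unequal regions within 100 kb of each other, 203 (77.8%) were wider in the same line, 134 in Loucy and 69 in Jurkat. Of all unequal regions, 53.6% were wider in Loucy. These counts come from the same peak lists as the rule and are given without a test.

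**Figure D5:**
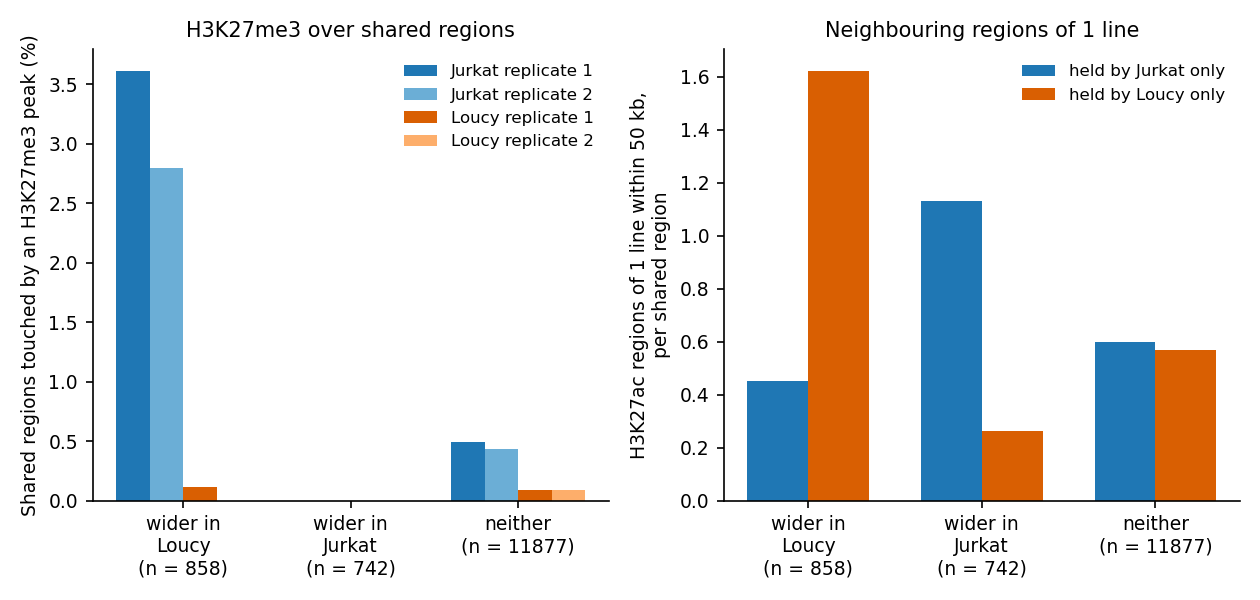
Left, percentage of the shared regions touched by an H3K27me3 peak (y axis) in each of the 4 H3K27me3 libraries (bars), for the regions at least 2-fold wider in Loucy, in Jurkat or in neither (x axis). Right, mean number of H3K27ac regions held by the libraries of 1 line only within 50 kb of a shared region of each set, 1.62 of Loucy and 0.451 of Jurkat around those wider in Loucy.

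Shared regions were found on every autosome and on X in unequal proportion. Of the union regions, 38.4% on chromosome 19 and 33.1% on X were shared, and 17.9% on chromosome 18. The median log2 width difference of the shared regions was lowest on X, at −0.32, with 15 wider in Loucy and 30 in Jurkat. It was next lowest on chromosome 5, at −0.29, with 21 against 47. Of these 23 chromosomes only chromosome 22 had a median above 0, at 0.01, with 36 wider in Loucy and 14 in Jurkat. The DNA copy number of the lines was not analysed here, and its part in these differences was not tested.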

How the data were processed

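The authors' deposited peak lists of 4 H3K27ac and 4 H3K27me3 libraries were used. Per the file headers, each library was called on its own with MACS 2.0.10.20131216 (broad peaks, paired fragments, q cutoff 0.05) against 1 input per line, that of replicate 2. The submitters' processing notes name Bowtie2 2.2.5, MACS2 2.0.10 and hg38. Per the labels' protocols, the Drosophila reads added for scaling were not used, so widths depend on each library's enrichment. The deposited columns used are the pileup (a coverage signal), the fold enrichment (a ratio) and the −log10 q-value. A deposited −log10 q of about 1.00 was the lowest in these lists, so they hold peaks with a deposited q above the stated cutoff of 0.05.

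Peaks of the main chromosomes were merged, and covered bases were counted per region and library in Python 3.11.15. Regions held by at least 2 libraries were fitted with limma 3.58.1 in R 4.3.3 on log2(covered bp + 200), with Benjamini-Hochberg adjustment, and the steps were tested on simulated data. Precision rests on 2 libraries per line, and the exact permutation test, used for H3K27me3, cannot fall below 0.333. The test planned for the territory share is not given, since the rule used those values. The members, sets and tests were chosen with earlier results of these data known. Named regions are the 10 longest, the 10 most unequal in each direction that limma called with no overlap of the lines, the 5 highest by rank and the 3 on either side of the 10% limit. Alternatives covered the peak threshold, equal peak numbers, coverage, merging, pseudocount, centring, filter, replicate block and each library left out; leaving out the 11 regions with both marks was added after the data were seen. The planned marker and gene lists were not used, since they need an hg38 annotation. Mouse libraries were not used here.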

Additional observations from a re-analysis of the deposited data

How the results depend on the processing

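Limiting peaks to a −log10 q of at least 5 gave 6794 shared regions (median 2498 bp), 247 and 276 at least 2-fold wider in Loucy and Jurkat, and 470 and 733 calls by limma, and turned the difference in territory share from −7.18 to 12.9 percentage points (Loucy minus Jurkat). The cause was not tested. It also turned 1 of the 28 named long or unequal regions, chr2:201182892-201196051, to −2.91, and 9 of the 28 lost limma's call. Counting a region as held at 50% coverage left 6551 (median 2231 bp), 200 and 400 calls, and by construction 0 and 0 at 2-fold. Any overlap gave a median of 2390 bp and merging peaks within 1 kb one of 2418.5 bp. With no filter on regions limma called 1102 wider in Loucy and 1110 in Jurkat, a near-even split, and a 4-fold rule left 134 and 73.

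Leaving out each library in turn gave median lengths of 2118 to 2225 bp, 1017 to 1669 regions 2-fold wider in Loucy and 993 to 2194 in Jurkat, territory differences of −15.5 to −3.38 points, median log2 differences of −0.26 to −0.068, and limma calls of 569 to 1499 and 119 to 2537. With a replicate block limma called 1201 wider in Loucy and 987 in Jurkat; the replicate numbers only share a label, since deviations of same-numbered libraries had a correlation of −0.025 over the shared regions. The block kept direction and call of all 28 named regions; without Jurkat replicate 2, 11 of the 28 lost the call. The pseudocounts of 50 and 1000 bp, equal peak numbers and leaving out the 11 regions with both marks kept every count within 1.5 times. The Loucy H3K27me3 libraries had the fewest fragments and the fewest peaks of the 4; whether depth sets the number of peaks was not tested.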
